A study of Mus musculus with 7 samples.

Results

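Ctsb, Ctsh, Ctss and Grn encode 3 lysosomal cysteine proteases (cathepsins B, H and S) and progranulin, a glycoprotein that is delivered to the same compartment. They were picked by symbol, with their values in this comparison already known, and are 4 of the 769 gene models in the authors' deposited table. The study compared megakaryocyte progenitors, the bone marrow cells that give rise to megakaryocytes and platelets, between young and old mice. Cells lacking lineage markers and Sca1 and carrying cKit, CD150 and CD41 were sorted from wild-type mice. They were the offspring of Flt3-Cre and mTmG reporter mice, in which cells are red (Tomato) until they, or a cell they descend from, express the recombinase and turn green (GFP). Young mice were 3 months old (3 libraries) and old mice 18 to 20 months old by one label (4 libraries), with strain C57BL/6 given for all but 1 old library, which is labelled C57BL/7. Tomato-positive or GFP-positive fractions were sorted, the young titles carry 1 prefix and the old titles 2, and what the prefixes mean is not stated. If they mark the reporter fraction, the old mean may pool both fractions, and age and fraction cannot be told apart in the pooled values. Whether each library came from its own mouse is not stated, so p-values measure at most a spread between libraries, which may be technical. The authors also give a mean over 14 samples. Whether samples outside this series entered their estimate of that spread is not stated.

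Cathepsins are made as inactive precursors, sorted to endosomes and lysosomes, and activated there by the acid pH. Cathepsins B, H and S belong to the papain family, in which a cysteine attacks the peptide bond. They are held in check outside the lysosome by cystatins. Cathepsin B is an abundant, widely expressed endopeptidase that also trims dipeptides from the carboxyl end, cathepsin H is chiefly an aminopeptidase, and cathepsin S is typical of antigen-presenting cells, where it cuts the invariant chain that occupies MHC class II. Progranulin is a chain of cysteine-rich granulin modules. It reaches the lysosome by way of sortilin or prosaposin and is cut there into single granulins.

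The coding sequence shows what the 3 proteases have in common and what sets progranulin apart. The following stretches of 30 bases surround the codon of the catalytic cysteine, which is in capitals, in GENCODE M21 transcripts on GRCm38 (mm10). They are shown because this site defines the family and because the likeness of the genes bears on whether reads could be shared.
Ctsb: ggctcctgcggctctTGTtgggcatttggg
Ctsh: ggggcctgtggcagcTGCtggactttctct
Ctss: ggttcttgtggtgccTGCtgggctttcagt
The Ctsb stretch runs across the junction of exons 4 and 5 (chr14:63135702-63136415, plus strand), the Ctsh stretch lies in exon 6 (chr9:90064507-90064536, plus strand) and the Ctss stretch in exon 5 (chr3:95545333-95545362, plus strand). Even at this site, Ctsb and Ctsh had the same base at 17 of 30 positions, Ctsb and Ctss at 19, and Ctsh and Ctss at 21. Over whole coding sequences the longest run of identical bases in any pair of the 4 genes was 12, between Ctsh and Ctss. Of the 50-base words in the coding transcripts of Ctsb, Ctsh and Ctss, 0 occurred in a transcript of another gene, and in Grn 43 of 2806 words (1.53%) did. Words were compared in the sense direction only, and exons outside coding transcripts were not searched. Grn has no such catalytic stretch. Its coding sequence of 602 codons holds 88 cysteine codons (14.6%, against a median of 2.13% over 21531 coding genes) and 28 pairs of adjacent cysteine codons, a number that 38 genes (0.176%) reach or exceed. Ctsb has 1 such pair, and Ctsh and Ctss have 0.

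The 4 genes were higher in old progenitors, and they fell into an abundant and a scarce pair. Ctsb and Grn were already plentiful in young cells and about doubled, whereas Ctsh and Ctss were scarce in young cells (ranks 210 and 196 of the 302 higher calls by young mean) and were many times higher in old ones. Levels are means of normalized counts per age group as the authors computed them, with neither a spread nor a value for each library. Each log2 fold change (old over young) comes with the authors' standard error (SE), and 95% intervals were computed from that error. All 4 gene models passed the authors' adjusted p of under 0.05 as higher in old, beside 2.56% of the 11778 gene models in their adjustment (4.13% in either direction). Since the genes were chosen on this contrast, that count is a description only.

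Ctsb lies on chromosome 14 from 63122462 to 63145923, plus strand. Its mean was 5876 normalized counts in young and 13242 in old in the authors' deposited table, a ratio of 2.25. In the authors' deposited table the log2 fold change was 1.17 with an SE of 0.23 and an adjusted p of 0.000115, and the 95% interval ran from 0.72 to 1.62. No other gene model among the 302 called higher had a larger young mean, and by the increase in mean, 7366 normalized counts, Ctsb ranked 4 of 302. By fold change it ranked only 257 of 302. Its annotated exons overlap those of Fdft1, a sterol synthesis gene on the other strand, over 774 bases (12.8% of the exon length of Ctsb). Whether the authors counted by strand is not stated, so reads from that stretch cannot be told apart. Fdft1 is not listed in the authors' deposited table.

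Grn lies on chromosome 11 from 102430315 to 102437048, plus strand. In the authors' deposited table its mean was 1845 in young and 3800 in old, a ratio of 2.06. The authors' deposited table puts the DESeq log2 fold change at 1.04, with SE 0.21 and adjusted p = 0.000248, and with a 95% interval of 0.62 to 1.46. Grn had the 5th largest young mean of the higher calls. Its log2 fold change was within 0.13 of that of Ctsb, less than either standard error. Grn exons overlap those of Fam171a2 on the other strand over 68 bases (1.96%).

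Ctsh lies on chromosome 9 from 90054152 to 90076089, plus strand. Its mean in the authors' deposited table was 10.8 in young and 98.6 in old, a ratio of 9.11. Its log2 fold change was 3.18 in the authors' deposited table, with SE 0.74 and adjusted p = 0.00207, and the 95% interval from 1.74 to 4.63 corresponds to between 3.34-fold and 24.7-fold. Ctsh ranked 97 of the 302 higher calls by fold change and 177 by the increase in mean.

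Ctss lies on chromosome 3 from 95526786 to 95556403, plus strand. The authors' deposited table gives means of 13.7 in young and 272 in old, a ratio of 19.9 and the largest fold of the 4. At 4.31 on the log2 scale, with SE 1.06 and adjusted p = 0.00421 in the authors' deposited table, it was also the least precise. The 95% interval from 2.24 to 6.38 corresponds to between 4.73-fold and 83.5-fold. Exons of Ctsh and Ctss overlap those of no other annotated gene.

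Within each pair the 95% intervals overlapped, and between the pairs they did not. Ctss exceeded Ctsb by 3.14 and Grn by 3.27 on the log2 fold change scale, and Ctsh exceeded them by 2.01 and 2.14. The SE of Ctss was 4.57 times that of Ctsb, and the SE of Ctsh 3.19 times. The 4 estimates come from the same libraries, so they are not independent, and the contrast between the pairs was part of how the genes were chosen.

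Precision went with level. Among the 302 higher calls in the authors' deposited table, the median SE was 0.94 for the 88 with a young mean under 10, 0.61 for the 116 from 10 to 100, 0.35 for the 88 from 100 to 1000, and 0.26 for the 10 above. The SE of Ctss was larger than that of 61 of the 70 other higher calls whose young mean was within 2-fold of its own (median SE 0.61). For Ctsh this held for 46 of 69 (median SE 0.63). Fold change was spread likewise: 11 of those 70 gene models exceeded Ctss and 20 of those 69 exceeded Ctsh. The table lists only gene models past an adjusted p of 0.1, so a scarce gene could enter it only with a large fold change.

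**Figure D1:**
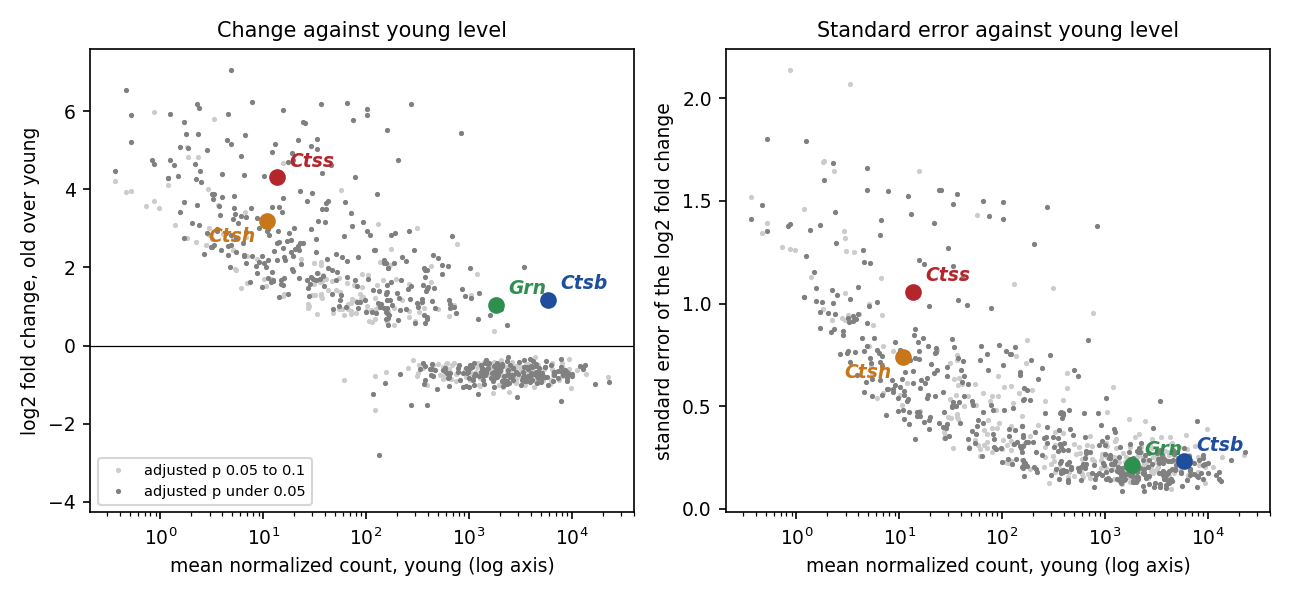
Log2 fold change (left) and its standard error (right) against the mean normalized count in young (log axis) for the listed gene models of the authors' deposited table, each dot being 1 gene model; 10 with a young mean of 0 are not drawn. Ctsb and Grn (blue, green) stand at the right among gene models that are mostly lower in old, while Ctsh and Ctss (orange, red) stand among the many scarce gene models that are higher, with Ctss above most of its neighbours in both panels.

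Ctsb and Grn stood in a range of expression in which few gene models were higher. At a young mean of 1000 or more, 10 gene models were called higher and 148 lower in the authors' deposited table, and the median log2 fold change of those 10 was 1.11. At young means from 10 to 100, where Ctsh and Ctss stand, 116 were called higher and 0 lower, with a median of 2.41. The young mean is also the base of the fold change and was used to choose the genes. Such a split is therefore partly built in, and these counts are a description only. Over all higher calls the median log2 fold change was 2.37 and the median young mean 29.1. The calls of the abundant pair depend on where the authors' normalization set the centre of all genes. They would end if all log2 fold changes were lowered by more than 0.46 (Ctsb) or 0.39 (Grn), against 0.91 for Ctsh and 1.06 for Ctss. With all values lowered by 0.5, 2 of the 4 genes, Ctsh and Ctss, were called, and the listed gene models split into 119 higher and 337 lower in place of 302 and 185. Raised by 0.5, they split into 429 and 1, and the 4 genes were called. Unlisted gene models that would pass after a shift are not counted.

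Longer transcripts collect more reads, so the ranks, level ranges and pairs above, which use normalized counts not divided by length, mix expression with transcript length. Levels were therefore also set side by side per kilobase of annotated exon. On that scale Ctsb had 971 normalized counts per kilobase in young and 2188 in old, and Grn had 531 and 1094. Ctss went from 10.1 to 200.2 per kilobase, and Ctsh from 2.41 to 21.9. The order Ctsb, Grn, Ctss, Ctsh was the same in both age groups. The steps between neighbours were not. Grn exceeded Ctss 52.7-fold in young and 5.46-fold in old, while Ctsb exceeded Grn 1.83-fold and 2.00-fold. Ctss exceeded Ctsh 4.19-fold in young and 9.13-fold in old, or 1.51-fold and 3.29-fold if the longest coding transcript is taken as the length. Values per library were not analysed here, so whether neighbours differ beyond the spread between libraries was not tested. The authors' exon models were not used here, so the lengths are approximate.

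**Figure D2:**
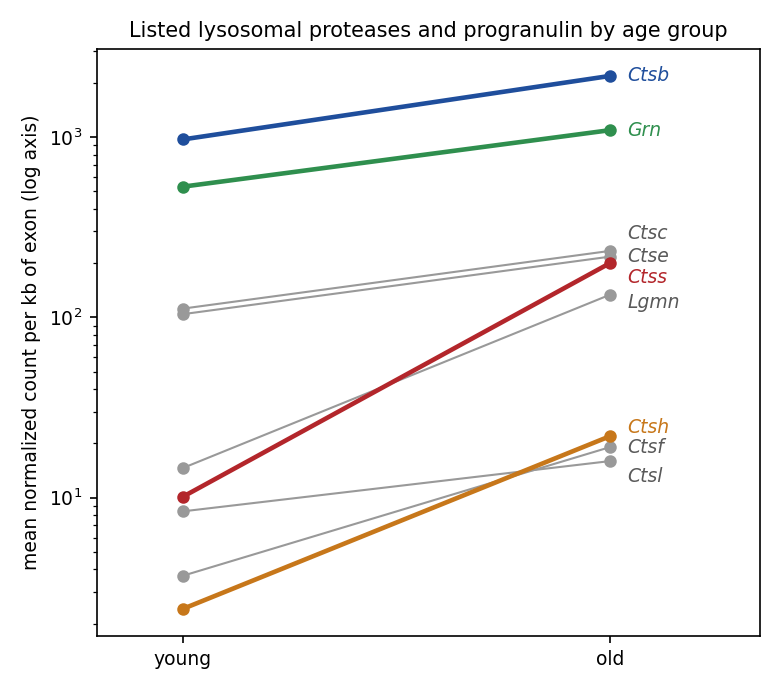
Mean normalized count per kilobase of annotated exon (log axis) in young and old progenitors for the 8 listed lysosomal proteases and Grn; each line joins the authors' 2 group means of 1 gene, which carry no error. Ctsb and Grn are the uppermost lines in both groups, and Ctss rises from 10.1 to 200.2, to just under Ctsc and Ctse.

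Without the cathepsins described above, 3 of 18 annotated lysosomal proteases (16.7%) were called higher and 0 lower, beside 2.56% and 1.57% of all gene models. Only 5 of these 18 are listed in the table. Of 21 annotated cathepsins and lysosomal proteases, 6 (28.6%) were called higher and 0 lower in the authors' deposited table, 3 of them the cathepsins described above. These counts stand beside 2.56% and 1.57% of all gene models, and the 6 had a median log2 fold change of 2.79. The other 3 were the asparaginyl protease legumain, Lgmn (33.8 to 310.5, log2 fold change 3.20, SE 0.79), Ctsf (18.5 to 96.1, 2.39, SE 0.64), and Ctsc, the dipeptidyl peptidase that activates granule serine proteases (649 to 1359, 1.07, SE 0.28), by their means and fold changes in the authors' deposited table. Ctsc thus resembled Ctsb and Grn in the size of its change, and Lgmn resembled Ctsh. Ctse, an aspartic protease (330 to 689, 1.06, SE 0.38, adjusted p = 0.0832), and Ctsl (54.4 to 103, 0.93, SE 0.34, adjusted p = 0.09) appear in the authors' deposited table without passing. The other 13 of the 21, among them Ctsd, Ctsz and Ctsk, are not listed in the table and have no value here. Ctsb made up 79.2% of the summed level per kilobase of the 8 listed proteases in young and 72.2% in old, while the share of Ctsh and Ctss together was 1.02% and 7.33%.

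Of 22 genes for progranulin and its trafficking, processing and receptors, 4 (18.2%) were called, beside 2.56% of all gene models called higher. These 4 were higher in old, and they include Grn itself, which was chosen on this contrast. Proteinase 3, Prtn3, a neutrophil protease able to cut progranulin, went in the authors' deposited table from 395 to 1498 (1.92, SE 0.46), and the membrane metalloproteinase Mmp14 from 58.1 to 280 (2.27, SE 0.43). The TNF receptor gene Tnfrsf1a stood, by the authors' deposited table, at 159 and 407 (1.36, SE 0.35). The carriers Sort1 and Psap are not listed there. Of 16 annotated cathepsin inhibitors, cystatins and serpins, 0 were called at the authors' adjusted p (DESeq) and 0 were listed, so no value, and no count at an unadjusted p, can be given for them.

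The other lysosomal lists had few calls each, to be read beside the 2.56% of all gene models called higher. Among 45 other lysosomal hydrolases 3 (6.67%) were higher: the phospholipase-like Plbd1 (4.45 to 175, 5.27, SE 1.26), the ganglioside activator Gm2a (161 to 475, 1.56, SE 0.36), and the heparan sulfate-degrading enzyme Naglu (0.83, SE 0.22) in the authors' deposited table. Among 40 membrane and transport proteins 2 (5%) were higher, the macrophage glycoprotein Cd68 (3.64, SE 0.62) and the metal transporter Slc11a1 (3.51, SE 0.73) in the authors' deposited table. Of 20 subunits of the proton pump that acidifies the lysosome, 0 were called higher and 1 lower, which by the authors' deposited table was Atp6v0a2 (662 to 405, -0.71, SE 0.22). The 34 annotated sorting and regulatory genes gave 1 higher call (2.94%, near the share of all gene models), Gnptg, a subunit of the enzyme that tags hydrolases with mannose 6-phosphate (0.58, SE 0.17), in the authors' deposited table. The clathrin adaptor genes Ap1s1 (-0.65, SE 0.22) and Ap1m1 (-0.53, SE 0.18) were listed in the authors' deposited table without passing. Over the 7 lists, the progranulin list included, and without the 4 genes described here, 12 of 186 annotated genes (6.45%) were called higher and 1 lower. The 12 include Prtn3, Mmp14 and Tnfrsf1a, which were listed for their link to progranulin and not as lysosomal genes. Prtn3 and Cd68 are also counted among the myeloid markers below. Genes of the 7 lists are called lysosomal below for short. The median log2 fold change of those 12 was 2.10, against 2.37 for all 302 higher calls.

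**Figure D3:**
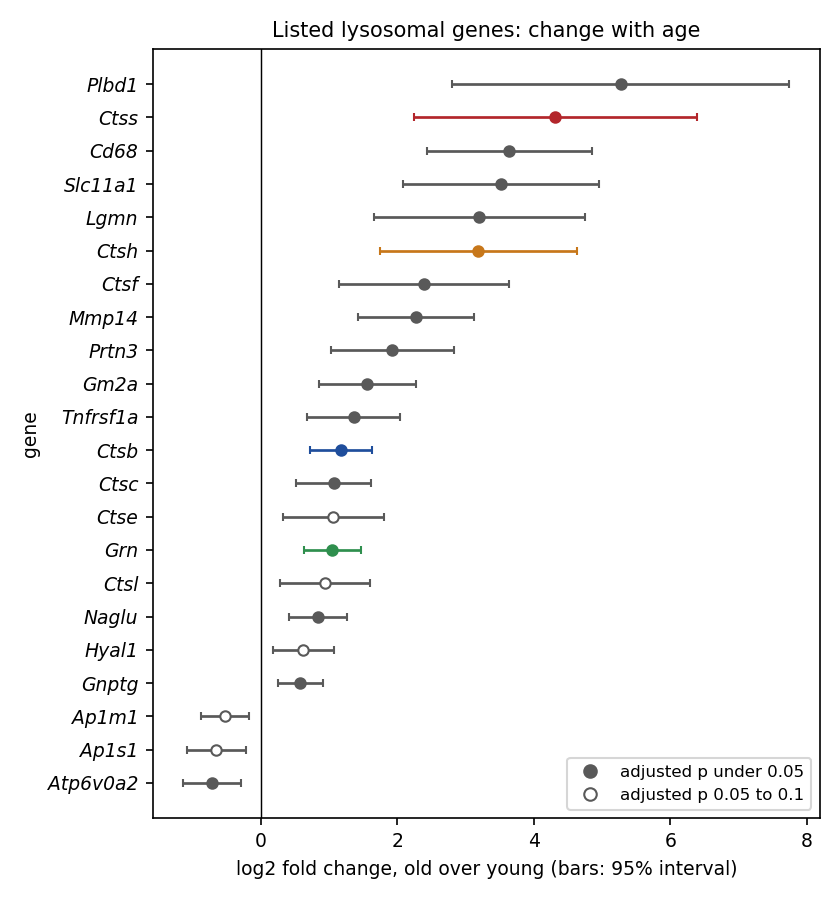
Log2 fold change of old over young for the 22 listed lysosomal genes, with bars for the 95% interval; filled points passed the authors' adjusted p of under 0.05, open points did not, and Ctsb, Grn, Ctsh and Ctss are coloured. The points for Ctss and Ctsh are near the top with wide bars, those for Ctsb and Grn lie near 1 with narrow bars, and only Atp6v0a2, Ap1s1 and Ap1m1 lie below 0.

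Markers of myeloid cells were higher in the same old group. The counts here stand beside the 2.56% of all gene models called higher. Of 26 granulocyte and monocyte markers 17 were listed and 16 called higher (61.5%), with a median log2 fold change of 5.84. The summed mean of the listed ones went from 5627 to 105147 in the authors' deposited table. Those called with the smallest adjusted p were Csf3r (3.28, SE 0.58), Csf1r (3.37, SE 0.71), Retnlg (7.05, SE 1.56) and Ltf (6.17, SE 1.47) in the authors' deposited table. Of 16 macrophage markers 3 were listed, with a sum of 485 in young and 4182 in old: Cd68 was called (6.25%), and C1qb and C1qc were not. None of these 20 listed markers had a mean of 0 in either group. Of 16 annotated genes of the MHC class II pathway, whose invariant chain cathepsin S cuts, 4 (25%) were called, all higher. They were Cd74 (5.51, SE 0.53), H2-Aa (5.10, SE 0.65), H2-Eb1 (3.71, SE 0.55) and H2-Ab1 (2.92, SE 0.47) in the authors' deposited table. Of 12 dendritic cell and 13 B and plasma cell markers, 0 were listed. The part of myeloid or antigen-presenting cells in the higher levels of Ctsb, Grn, Ctsh and Ctss was not tested, and in bulk samples more cells of a type and more RNA per cell cannot be told apart.

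Other marker lists also held calls, beside the 2.56% of all gene models called higher. The T and NK cell list had 2 of 13 genes (15.4%) called higher, Klrb1c (4.64, SE 1.39) and Cd4 (3.08, SE 0.95), the list for mast cells, basophils and eosinophils 4 of 15 (26.7%), led by Prg3 (listed at 0 in young and 18.7 in old) and Fcer1a (6.55, SE 1.48), and the erythroid list 2 of 13 (15.4%), Hbb-bs (2.82, SE 0.82) and Hbb-bt (2.45, SE 0.75), in the authors' deposited table. Of 22 megakaryocyte markers 2 were listed and 1 (4.55%) called higher: Selp (2.25, SE 0.68) was called and Mmrn1 (2.14, SE 0.75) was not. Genes are listed only by their difference with age, so the labelled cell type could not be checked in either group.

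In the plane of young and old level, each gene had its nearest neighbours elsewhere. Likeness was taken as the Euclidean distance between log2 group means over the 769 listed gene models, so it rests on 2 groups. Ctsb stood apart. Its nearest gene model was the lysozyme gene Lyz2 (3428 to 13811 in the authors' deposited table) at a distance of 0.78, and the next, Gdi2 and Ppif, were lower in old. Nearest to Grn was Acap1 (2038 to 3919, distance 0.15), followed by Rnf167 and Kmt2e, by means in the authors' deposited table. Nearest to Ctsh were Lag3 (11.2 to 88.1, distance 0.17), Irf2bpl and C130026I21Rik in the authors' deposited table. Nearest to Ctss were Clec1a (15.7 to 214, distance 0.40), AK153212 and Cebpe in the authors' deposited table. None of the 12 neighbours is a lysosomal protease. On the chromosome, the 100000 bases on either side of Ctsb, Grn, Ctsh and Ctss hold 8, 10, 8 and 11 other annotated genes, and 0 of these are listed in the table.

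Promoter sequence was at hand for 2 of the 4 genes, 1 of each pair. The windows searched are the 250 bases before the RefSeq start (GRCm38.p6). They are printed as far as the start of the gene in GENCODE M21, which for Ctss is the same and for Grn leaves the first 58 bases, because an abundant and a scarce gene that were both higher in old can be read side by side. Capitals mark the letters GAGGAA, the core bound by PU.1, and TCACATGA, an E-box form bound by the MITF and TFE family, each on either strand. The motifs were chosen with these sequences in view.
Ctss: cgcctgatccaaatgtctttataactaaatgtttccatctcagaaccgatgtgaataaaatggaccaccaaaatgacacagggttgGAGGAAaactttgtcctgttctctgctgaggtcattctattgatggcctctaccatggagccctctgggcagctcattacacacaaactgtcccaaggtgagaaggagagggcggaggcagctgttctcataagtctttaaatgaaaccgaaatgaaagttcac
Grn: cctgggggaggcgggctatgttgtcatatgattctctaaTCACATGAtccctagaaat
The printed bases are chr3:95526536-95526785 for Ctss and chr11:102430257-102430314 for Grn, both on the plus strand. GAGGAA occurs once in the Ctss window and at 2 places in the Grn window, beside 23.3% of all 32851 promoter windows of that length. Those 2 places lie past the printed bases, and so inside Grn as annotated in GENCODE M21. TCACATGA occurs in the Grn window, 211 bases before the RefSeq start, beside 0.846%. It lies nearer the GENCODE start, where the printed bases end. In the windows of 300 bases that add the 50 bases after the start, Ctss holds TCACATGA too, on the other strand, beside 0.986% of all. The E-box CACGTG, which lies at the centre of the TFEB element of lysosomal genes, is in neither 300-base window, beside 7.15% of all windows. Of the other 18 listed lysosomal genes, 15 have a window at hand, and 6 of these hold CACGTG: Ctsf, Ctsl, Gnptg, Lgmn, Naglu and Plbd1. Of those 15, 0 hold TCACATGA and 5 hold GAGGAA. Among 206 other genes called higher with a window of 300 bases, 2 hold TCACATGA and 89 hold GAGGAA, which 28.3% of all such windows hold. A match is a match of letters and says nothing of binding in these cells.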

How the data were processed

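Per the labels' protocols, RNA of the sorted cells was extracted with Trizol and made into NEBNext Ultra libraries. The submitters' processing notes list the tools Bowtie2, STAR and DESeq and the build mm10, without versions. The authors deposited 1 table of their own DESeq comparison, with no value per library. Per the file headers its columns are mean normalized counts of each group (a scaled signal) and over 14 samples, some outside this series, the log2 fold change, its standard error and the Wald statistic (scores), and the p-value and adjusted p-value. The old column's name matches no single title, so it was read as the old group from the comparison, and how many of the 4 libraries it holds is not stated. The header of the log2 fold change is log2FcMAP, and whether its values were shrunken toward no change is not stated. For the 4 genes they lay within 0.0039 of the log2 ratio of the group means. Depth per library is unknown.

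No count model could be fitted to means. Calls are the authors' adjusted p under 0.05. The table holds adjusted p up to 0.0993, and the adjustment, worked back from its p-values, covered 11778 gene models. The 95% intervals are 1.96 standard errors each way. The genes, the 16 gene lists and the naming rule were chosen with earlier results of these data known. The rule named every called gene of the 7 lysosomal lists, at most 4 per other list by adjusted p, the 3 nearest gene models per gene, and listed genes within 100000 bases. Sort1, Psap, Ctsd, Ctsz, Ctsk and listed genes without a call were named besides. Lengths and positions are from GENCODE M21, promoters from RefSeq GRCm38.p6. Of the fixed lists, 1 gene is not reported here and enters none of their counts. Of the listed symbols, 51 matched no annotated gene. The counting of calls was tested on simulated data. Python 3.11.15, pandas 2.3.3 and scipy 1.17.1 were used. Alternatives were other limits, a minimum mean, recentring, pseudocounts and gene length.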

Additional observations from a re-analysis of the deposited data

Results flagged for a closer look

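Ctsh had a mean of 214 normalized counts over the 14 samples of the authors' deposited table, above both its young mean of 10.8 and its old mean of 98.6. This column is used in no comparison, and it drew attention because the 14 samples must then include some, other than the libraries behind the 2 group means, with more Ctsh; these could include old libraries, if the old mean leaves some out. If the 3 young libraries and 2 to 4 old ones are among the 14, the rest average 308 to 368 for Ctsh. The same sum gives 352 to 375 for Ctss, also above its old mean of 272, while for Ctsb (10020 to 10736) and Grn (2729 to 2967) it falls between the young and the old mean. What those samples are is not stated. A 14-sample mean above both groups was common: 314 of all 769 listed gene models (40.8%) and 211 of 302 higher calls (69.9%) had one. Of the 18 other listed lysosomal genes 8 (44.4%) had one, near the share of all listed gene models.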

How the results depend on the processing

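With all log2 fold changes lowered by 0.5, Ctsb (0.67, p = 0.00362) and Grn (0.54, p = 0.011) no longer passed the largest p the authors called, 0.00206, in the normal approximation to their DESeq test. The number of the 4 genes called then fell to 2, the higher lysosomal calls from 16 to 8 (from 12 to 6 without the 4 genes), and the lower ones went from 1 to 3. Lower lysosomal calls numbered 0 at an adjusted p limit of 0.01 and 0 with all values raised by 0.5, and 3 at a limit of 0.1. Over all gene models, higher and lower calls numbered 302 and 185, against 139 and 41 at 0.01 and 432 and 337 at 0.1. Over the listed gene models alone, they numbered 119 and 337 lowered, and 429 and 1 raised. Recentred counts, the lysosomal ones included, miss unlisted gene models that would pass after a shift, so they may be too low. With a pseudocount of 10 on the means, the log2 fold change of Ctsh went from 3.18 to 2.38 and that of Ctss from 4.31 to 3.57. Those of Ctsb and Grn stayed at 1.17 and 1.04. With the longest coding transcript as length, the ratio of Ctss to Ctsh went from 4.19 to 1.51 in young and from 9.13 to 3.29 in old. The 4 genes were called at both other limits, at a mean of at least 50 and with values raised by 0.5. Without standard errors over 1, a limit that removes Ctss, 3 were called. Per-length ratios with another gene length were chosen after seeing the data. Omitting libraries, other normalizations, a refit and separate kinds of old title were not run, because only group means are given. No paired analysis was possible because the columns hold means and no replicate numbers.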
